A study of Clytia hemisphaerica and Astroides calycularis and Pocillopora acuta with 17 samples.

Results

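Among the genes of the jellyfish Clytia hemisphaerica, 150 stood highest in planula larvae of 52 hours post-fertilization (hpf) relative to larvae of 66 hpf, of 10322 genes with at least 100 unique molecular identifiers (UMIs, single counted transcripts) and of 18761 features in each matrix. They were chosen on these values: UMIs were summed over the kept cells of each matrix and scaled to the total of the matrix as CPM, 5 CPM were added, and the lower of the log2 ratios of 52 to 66 hpf in technical replicate 1 and in technical replicate 2 was ranked. Genes that the study refers to by name were left out first. There were 48 such genes, of which 1 (XLOC_020007) would have ranked among the 150. The contrast of 52 with 66 hpf therefore chose the members and is given below as a description with no test. Cluster labels and levels in 2 earlier matrices were not used to choose them. Each matrix was summed over all its clusters, however, so a cluster whose share of UMIs differed between the ages also weighed on the choice. Counts of members per cluster are therefore not fully independent of it. Ratios of the earlier matrices to 66 hpf share the 66 hpf values with the choice and are descriptions too.

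The planula is the ciliated swimming larva of cnidarians, with an outer epidermis and an inner gastroderm. In hydrozoans such as Clytia, interstitial stem cells (i-cells) divide and give rise to neural cells, stinging cells, secretory cells and germ cells. Dividing cells copy their DNA with a conserved machinery: the MCM helicase opens the double helix, replication protein A holds the single strands, replication factor C loads the sliding clamp PCNA, and enzymes such as ribonucleotide reductase, dihydrofolate reductase and dUTPase supply and clean the pool of nucleotides, while newly made histones package the copied DNA.

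Planula cells of Clytia and of a pair of coral species were profiled one by one in the series, and only the Clytia cells are described here. Laboratory Z strain adults gave 2 fertilizations from the same batch of jellyfish, grown at the same temperature to 52 hpf or to 66 hpf, and many larvae were pooled in a single dissociation per age, fixed in ACME (acetic acid and methanol) and split into 2 technical replicates. Each age is thus 1 biological sample, its replicates share their cells' source, and age, fertilization and dissociation cannot be told apart. The 2 earlier Clytia matrices, ACME (5 captures pooled) and methanol (1 capture), are named by their fixative, and no age is given for them in the labels or methods used here. Date and age cannot be told apart between these and the newer matrices. The newer cells were also fixed in ACME, so the fixative differs only for the methanol matrix, where it cannot be told apart from date and age. After the filters, the matrices of 52 hpf held 1409 and 1299 cells, those of 66 hpf 2611 and 2835 cells, ACME 4416 and methanol 2802 cells, with 5355639 to 17336231 UMIs per matrix and medians of 941 to 1643 UMIs per cell, the lowest in methanol. Any pair of matrices shared at most 4 cell barcodes.

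The members made up 3.93% and 3.79% of all UMIs at 52 hpf and 2.65% and 2.52% at 66 hpf. Their share was 3.03% in the ACME matrix and 2.30% in the methanol matrix, so that ACME lay between the ages and methanol below both. The lower log2 ratio of each member ran from 0.40 (1.32-fold, XLOC_037141) to 1.82 (3.52-fold, XLOC_019808) with a median of 0.48 (1.40-fold). Only 8 members were over 2-fold and 30 over 1.5-fold higher in both replicates. For 147 members both 52 hpf matrices lay above both 66 hpf matrices, as they did for 22.7% of all genes with at least 100 UMIs, but since this contrast chose the members nothing is read from that count. The limit fell in a continuous range: XLOC_012382, XLOC_011967 and XLOC_037141 were just inside, at 0.403, 0.402 and 0.401, and MSTRG.18301, XLOC_045610 and XLOC_005280 just outside, each at 0.401. MSTRG.18301 is an MCM helicase gene.

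Technical replicates lay close together for most members. Their median absolute log2 ratio between replicates was 0.10 at 52 hpf and 0.10 at 66 hpf, against 0.12 and 0.11 over all genes with at least 100 UMIs. A difference of over 2-fold between replicates was seen for 2 members at 52 hpf and 5 at 66 hpf. When 150 genes were chosen on replicate 1 alone, 118 were also above 66 hpf in replicate 2, with a median log2 ratio of 0.31 there against 0.68 in replicate 1, and 35.3% of all genes were above. Chosen on replicate 2 alone, 134 were above in replicate 1, with a median of 0.44 against 0.64, and 43.6% of all genes were above. These replicates are captures of one cell suspension per age, so the agreement covers capture and sequencing only.

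Genes of DNA replication were frequent among the members. Annotation came only from the protein domains in the study's own gene tables, which list 1819 of the 10322 genes and 62 members, 53 of these with a domain, and which hold genes picked from the study's libraries rather than all genes. Of the 17 genes in the DNA replication list, 6 were members, against 53 of the 1455 genes with a domain and 1.45% of the 10322 genes. The list was chosen with earlier results of these data known, and its count was not tested. Of the 17 genes, 16 had a lower log2 ratio above 0, against 2785 of the 10322. The medians were 0.35 over the list and -0.18 over all genes with at least 100 UMIs. The exception, XLOC_042095, carries the domains of many nucleotide-binding enzymes, thymidylate kinase among them. The sliding clamp PCNA (XLOC_031923) stood at 907 and 930 CPM at 52 hpf, 647 and 642 CPM at 66 hpf, 627 CPM in ACME and 346 CPM in methanol. Its exact Poisson 95% intervals, which cover counting error only, were 885 to 930 and 906 to 954 CPM at 52 hpf and 632 to 663 and 627 to 658 CPM at 66 hpf. The order of the ages is the one PCNA was chosen for. The earlier matrices lay below both 66 hpf values, and methanol was lowest.

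The nucleotide enzymes had the same order of ages. The dUTPase XLOC_004582, which removes dUTP from the nucleotide pool, was measured at 610 and 679 CPM (52 hpf), 421 and 436 CPM (66 hpf), 392 CPM (ACME) and 176 CPM (methanol). Dihydrofolate reductase (MSTRG.21595), which regenerates the folate needed to make thymidylate, reached 137 and 141 CPM at 52 hpf, 92.6 and 83.8 CPM at 66 hpf, 106 CPM in ACME and 45.2 CPM in methanol. The small chain of ribonucleotide reductase (XLOC_008473), the enzyme that makes deoxyribonucleotides, had 714 and 716 CPM at 52 hpf, 505 and 473 CPM at 66 hpf, 470 CPM in ACME and 295 CPM in methanol. For all 3 enzymes methanol lay below every other matrix, and ACME lay below both 66 hpf matrices for the dUTPase and ribonucleotide reductase but above both for dihydrofolate reductase.

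The proteins that act at the fork divided in the earlier matrices. A replication protein A gene (XLOC_033746) had 180 and 169 CPM at 52 hpf, 122 and 112 CPM at 66 hpf, 126 CPM in ACME and 87.8 CPM in methanol. The replication factor C gene XLOC_030859 had 71.0 and 73.8 CPM, then 51.1 and 49.6 CPM, then 62.3 CPM in ACME and 29.7 CPM in methanol. The MCM gene XLOC_037193 had 120 and 105 CPM at 52 hpf and 82.5 and 71.3 CPM at 66 hpf, but 117 CPM in ACME and 119 CPM in methanol. The MCM gene thus stood in both earlier matrices at the level of 52 hpf, whereas the other 5 members of the list lay below both 66 hpf matrices in methanol. Geminin (XLOC_033899), known in animals as an inhibitor of the licensing of replication origins, lay at 146 and 154 CPM at 52 hpf, 109 and 101 CPM at 66 hpf, 107 CPM in ACME and 71.0 CPM in methanol.

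**Figure D1:**
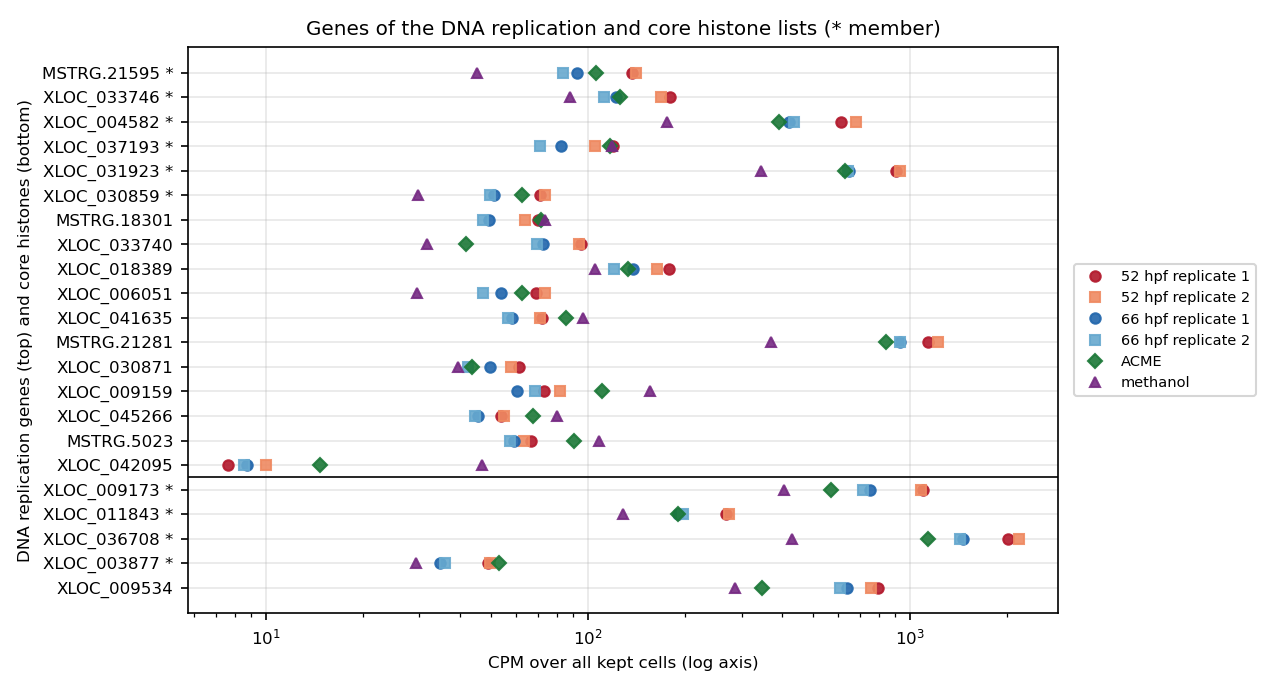
CPM over all kept cells (log axis) of the 17 genes in the DNA replication list, above the line, and the 5 in the core histone list, below it, with 1 point per matrix and members marked by an asterisk. The 52 hpf points of every member lie to the right of the 66 hpf points, and those of XLOC_042095 overlap with them. The methanol points of all genes in the core histone list lie to the left.

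Chromatin proteins formed a second group, in which abundance varied widely. Of 5 genes in the core histone list, 4 were members. The list rests on domains alone. Its members XLOC_011843 and XLOC_003877 carry the domain of histone-like transcription factors (CBF/NF-Y) ahead of the core histone domain, and whether they are nucleosomal histones was not tested. The H2A gene XLOC_036708 stood at 2010 and 2178 CPM at 52 hpf, 1461 and 1428 CPM at 66 hpf, 1136 CPM in ACME and 431 CPM in methanol, and the H2A gene XLOC_009173 at 1095 and 1086 CPM, 751 and 714 CPM, 570 CPM and 408 CPM in the same order. Both earlier matrices were thus below 66 hpf for both H2A genes. Over the 5 genes of the core histone list the median log2 ratio to 66 hpf was -0.35 in ACME and -0.84 in methanol, where all genes had 0.35 and 0.82. An HMG-box gene (XLOC_034527), of a family of proteins that bend DNA, had 3472 and 3633 CPM at 52 hpf, 2426 and 2480 CPM at 66 hpf, 1614 CPM in ACME and 1234 CPM in methanol. A second HMG-box member, MSTRG.16429, went the other way in the earlier matrices, with 677 and 530 CPM at 52 hpf, 453 and 372 CPM at 66 hpf, 852 CPM in ACME and 524 CPM in methanol.

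Genes of RNA handling were a further group, counted after the members had been seen. The LSM domain, found in proteins that bind small nuclear RNAs and help in splicing and mRNA decay, was carried by 4 members of 7 annotated genes (XLOC_010599, XLOC_002010, MSTRG.22971 and MSTRG.19318), and the RNA recognition motif by 5 members of 47. XLOC_002010 may serve as the example, with 715 and 714 CPM at 52 hpf, 529 and 529 CPM at 66 hpf, 470 CPM in ACME and 281 CPM in methanol. All 4 LSM members lay below both 66 hpf matrices in methanol, and 2 of 4 were above in ACME. Of all genes with at least 100 UMIs, 1.45% were members. Domain lists were drawn only from the 1455 of these genes with a domain in the study's tables, of which 53 were members. In other lists 0 of 94 ribosomal protein genes, 0 of 82 orally enriched genes, 0 of 18 lectins and 0 of 9 astacin proteases were members. These counts were not tested against either share, and nothing is read from them. Of 279 aborally enriched genes 5 (1.79%) were members, near the 1.45% of all genes, while 62 of the 1819 genes in the study's tables were members. The 5 were XLOC_001932, XLOC_004148, XLOC_040584, XLOC_010046 and the copper/zinc superoxide dismutase MSTRG.23029, an enzyme that removes superoxide.

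The homeodomain gene XLOC_016820, of the family of transcription factors that bind DNA through that domain, had 54.3 and 58.1 CPM at 52 hpf, 29.9 and 31.2 CPM at 66 hpf, 55.0 CPM in ACME and 51.5 CPM in methanol. Both earlier matrices therefore lay near 52 hpf and above both 66 hpf matrices. It was the only one of the 3 members in the list of transcription factor domains that carries a DNA-binding homeodomain, since the other 2 (XLOC_004139 and XLOC_002093) are RING finger genes. The tubulin XLOC_011074, a subunit of microtubules, had 3264 and 2983 CPM at 52 hpf, 2183 and 1988 CPM at 66 hpf, 2393 CPM in ACME and 1825 CPM in methanol. XLOC_010444, the member with the most UMIs (97469 over the 4 newer matrices) and no listed domain, had 4013 and 3529 CPM, 2495 and 2172 CPM, 3372 CPM and 2226 CPM. Both genes were above 66 hpf in ACME, while in methanol the tubulin was below both 66 hpf matrices and XLOC_010444 lay between them.

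Several genes at the top of the ranking had UMIs that came from few cells. XLOC_019808 had 994 and 274 CPM at 52 hpf, 217 and 74.2 CPM at 66 hpf, 20.2 CPM in ACME and 30.1 CPM in methanol. Its replicates thus differed more than 2-fold at each age, and both earlier matrices lay far below. The 10 cells with the most UMIs of the gene held 98.8% and 96.3% of them at 52 hpf and 93.7% and 80.6% at 66 hpf, and a single cell of 52 hpf replicate 1 held 2581, whereas the 10 highest cells held 16.3% in ACME and 21.7% in methanol. Without the 10 highest cells of each matrix its lower log2 ratio was -0.37.

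In 41 members, 9 of them among the 15 with the highest values, the 10 highest cells held over 50% of the UMIs in both 52 hpf matrices. An extreme case was XLOC_004815, with 19.5 and 37.2 CPM at 52 hpf, 9.33 and 0.886 CPM at 66 hpf, 2.36 CPM in ACME and 0.187 CPM in methanol, found in at most 9 cells of any matrix. When the 10 highest cells were left out for each gene and matrix, the median lower log2 ratio of the members was 0.38, and 20 members were at or below 0. This describes the values that chose the members, and 10 cells are a larger share of the smaller 52 hpf matrices than of the 66 hpf matrices. The other 6 of the 15 highest members, XLOC_003650, XLOC_001820, XLOC_007677, MSTRG.11744, XLOC_035583 and XLOC_016820, had values of 0.63 to 1.11 without those cells. XLOC_007677, for example, had 370 and 344 CPM at 52 hpf, 177 and 171 CPM at 66 hpf, 122 CPM in ACME and 157 CPM in methanol, so that both earlier matrices lay below every newer one. For comparison, the 10 highest cells held 12.6% and 13.8% of the PCNA (XLOC_031923) UMIs at 52 hpf.

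**Figure D2:**
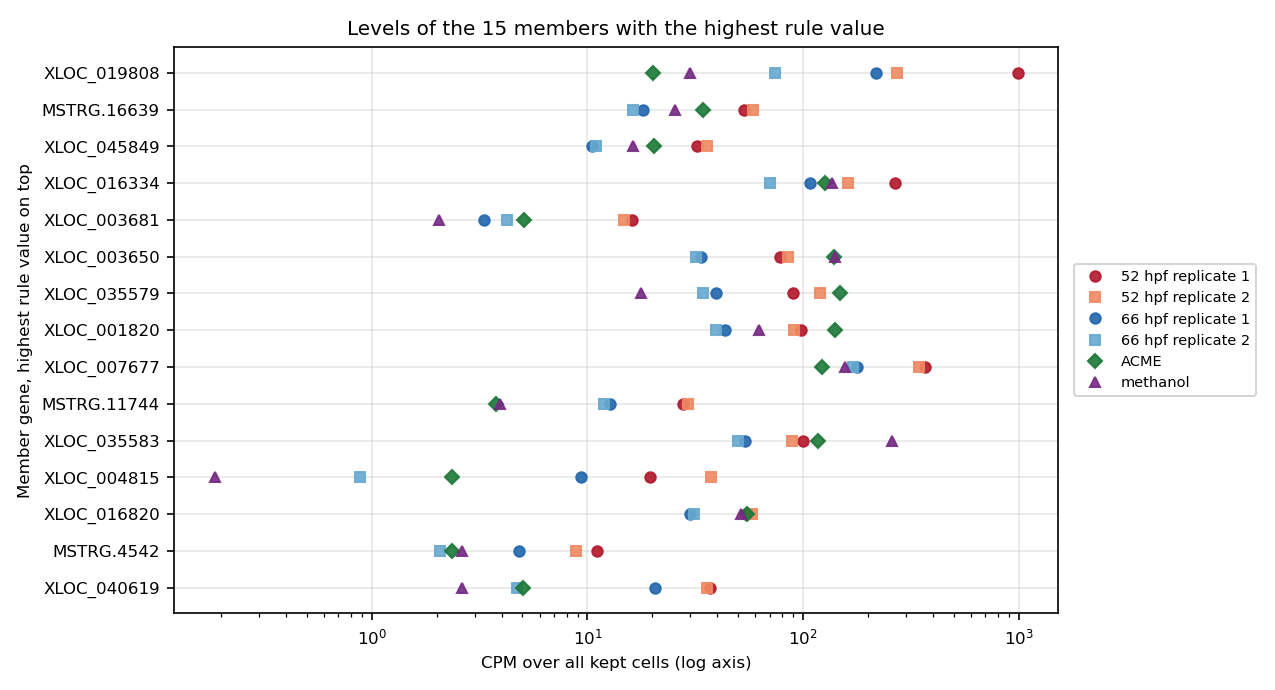
CPM over all kept cells (log axis) of the 15 members with the highest values, 1 point per matrix. XLOC_019808 runs from 20.2 CPM in ACME to 994 CPM in 52 hpf replicate 1, and for XLOC_004815 the 66 hpf replicates lie far apart.

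To ask which cells hold the members, cells were clustered without the members, so that no member could shape a cluster. The 15372 kept cells of the 6 matrices fell into 25 clusters, numbered by size. UMIs were summed per cluster and per biological sample (52 hpf, 66 hpf, ACME and methanol), and each cluster was set against all other cells of those samples by the quasi-likelihood test of edgeR, with a term for each sample. Genes were called where the Benjamini-Hochberg adjusted p was under 0.05 with a log2 fold change over 1. All 150 members could be fitted in at least 1 cluster. Called in at least 1 cluster were 144, where 89.1% of all genes fitted were called in any cluster. Of the members, 54 were called in 1 cluster, 48 in 2 and 42 in 3 or more. The like shares of all genes are not given here, and nothing is read from that split.

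Clusters 2 and 7 stood apart from the rest. In cluster 2, 72 of 146 fitted members (49.3%) were called higher, against 18.8% of all genes, and in cluster 7, 52 of 143 (36.4%) against 8.99%. Together, 82 members were called in at least 1 of these clusters and 42 in both, with no share of all genes given for these 2 counts. Of the fitted members, 46 (31.5%) were called lower in cluster 2 and 44 (30.8%) in cluster 7, against 30.6% and 28.2% of genes with at least 100 UMIs. With library sizes alone in place of TMM factors, 44 members (30.1%, against 7.81% of all genes) were called higher in cluster 2 and 35 (24.5%, against 3.32%) in cluster 7. Cluster 2 held 1358 cells with a median of 11593.5 UMIs, and cluster 7 held 871 cells with a median of 6504 UMIs, so that both are far richer in UMIs than the average cell. Depth therefore moves with this result. Together these clusters held 49.1% and 52.2% of UMIs at 52 hpf and 43.9% in each 66 hpf matrix, and the rule ranked sums over whole matrices. The part of depth and of these shares in the result was not tested.

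No cell type name was given to either cluster. Of 14 i-cell genes fixed for naming, 9 were members and had to be left out, and of the remaining 5 genes, 5 were called in cluster 2 and 3 in cluster 7. The genes that led cluster 2 were XLOC_029323, XLOC_044765 and XLOC_030421, and those that led cluster 7 were XLOC_009125, XLOC_002790 and XLOC_042465. None of the other 7 naming lists had a gene called in either cluster.

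**Figure D3:**
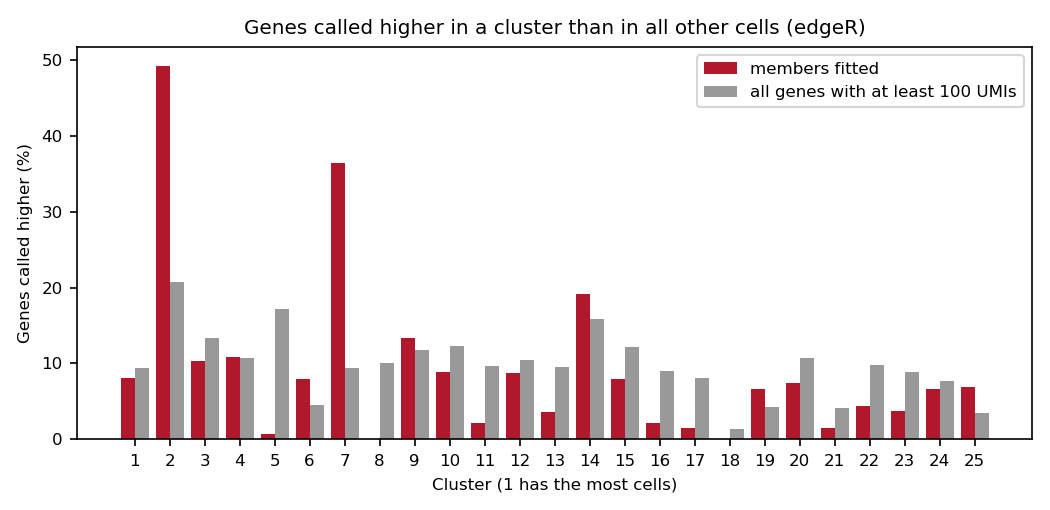
Percent of genes called higher in each of the 25 clusters than in all other cells (edgeR), for the members fitted (red bars) and for all genes with at least 100 UMIs (grey bars). The red bars of clusters 2 (49.3%) and 7 (36.4%) rise far above the grey ones, while clusters 5, 8 and 18 hold 0 or 1 called member.

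Most genes of the replication list were called in these clusters. Of the 17 genes in the list, 16 were called in cluster 2 and 11 in cluster 7. All 6 members were called in cluster 2, also with library sizes alone. The list holds only genes with a domain in the study's tables, which include marker genes of its own clusters of Clytia planula cells. These calls are thus not independent of the list, and the same holds for the other domain lists. PCNA (XLOC_031923) had 1379 CPM inside cluster 2 and 667 CPM in all other cells at 52 hpf, 1235 against 392 CPM at 66 hpf, 1343 against 302 CPM in ACME and 972 against 238 CPM in methanol. It was higher in the cluster in 4 of 4 samples (log2 fold change 2.18, edgeR adjusted p = 4.3e-06), and in cluster 7 likewise (1.44, edgeR adjusted p = 7.55e-06). Inside cluster 2 its level thus differed little between the ages, and the ages differed more in the other cells.

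Ribonucleotide reductase, the H2A genes and the HMG-box gene XLOC_034527 had higher levels in cluster 7 than in cluster 2. The other members of the core histone list, XLOC_011843 and XLOC_003877, were called in cluster 2 alone. XLOC_008473 had 1728 CPM in cluster 7 against 532 CPM outside at 52 hpf, 1322 against 355 CPM at 66 hpf, 1504 against 363 CPM in ACME and 1112 against 238 CPM in methanol (log2 fold change 2.42, edgeR adjusted p = 2.7e-08). In the ACME and methanol matrices together its highest level was in cluster 25, a cluster of 71 cells, where it had 2845 CPM at 52 hpf, 1789 CPM at 66 hpf, 4416 CPM in ACME and 1404 CPM in methanol (log2 fold change 1.33, edgeR adjusted p = 3.32e-02). In cluster 2 its log2 fold change was 1.08 (edgeR adjusted p = 4.37e-04), although at 52 hpf its CPM was 703 inside and 721 outside. The H2A gene XLOC_036708 reached 3881 CPM in cluster 7 against 1765 CPM outside at 52 hpf, 3274 against 1148 CPM at 66 hpf, 3009 against 940 CPM in ACME and 1360 against 367 CPM in methanol. The HMG-box gene XLOC_034527 followed with 7212 against 2886 CPM, 6047 against 1869 CPM, 5199 against 1240 CPM and 5147 against 963 CPM in the same order. Both were higher in cluster 7 in 4 of 4 samples, with log2 fold changes of 2.01 and 2.33 (edgeR adjusted p = 1.37e-07 and 8.16e-08). All 4 LSM members were called in cluster 2 and none in cluster 7.

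Of the 94 ribosomal protein genes, 77 were called in cluster 2 with TMM factors and none was a member, their median lower log2 ratio being 0.054. The homeodomain gene XLOC_016820 was called in clusters 2 and 7 (log2 fold changes of 2.72 and 1.25, edgeR adjusted p = 1.42e-05 and 5.95e-04). In cluster 2 it was higher in 4 of 4 samples, at 93.2 against 35.9 CPM at 52 hpf, 60.4 against 17.7 CPM at 66 hpf, 122 against 24.6 CPM in ACME and 246 against 17.96 CPM in methanol. In cluster 7 it was lower inside than outside at 52 hpf on the CPM scale (47.0 against 57.7 CPM) and higher in the other 3 samples.

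Other members marked small clusters. In the ACME and methanol matrices together, cluster 2 was the highest of all clusters for 30 members (20% of them, against 4.33% of all genes), cluster 7 for 21 (14%, against 2.25%), cluster 14 for 24 (16%, against 8.44%) and cluster 25 for 16 (10.7%, against 9.29%). Cluster 14, led by XLOC_036637, MSTRG.22802 and XLOC_040780, had 27 of 141 fitted members called, or 19.1%. The share was 18.9% over all genes and 15.9% over genes with at least 100 UMIs, so cluster 14 stood little apart by that count. MSTRG.16639, the member with the second highest value, was found almost wholly there, with 53.3 and 58.6 CPM over all cells at 52 hpf, 18.2 and 16.2 CPM at 66 hpf, 34.5 CPM in ACME and 25.6 CPM in methanol. Inside cluster 14 it had 1846 CPM against 2.31 CPM outside at 52 hpf, 698 against 0.395 CPM at 66 hpf, 1244 against 2.37 CPM in ACME and 756 against 8.98 CPM in methanol (log2 fold change 8.67, edgeR adjusted p = 3.36e-09). Both ages and both earlier matrices thus placed it in the same cells, with the highest level there at 52 hpf.

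Cluster 19, led by MSTRG.24972, XLOC_011956 and XLOC_000486, was the place of XLOC_016334, which had 268 and 162 CPM at 52 hpf, 108 and 70.6 CPM at 66 hpf, 127 CPM in ACME and 136 CPM in methanol. Inside the cluster it had 14240 CPM at 52 hpf, 5336 CPM at 66 hpf, 3565 CPM in ACME and 10330 CPM in methanol, and outside at most 31.2 CPM (log2 fold change 8.97, edgeR adjusted p = 6.75e-73). The cluster held 3.41% and 3.00% of cells at 52 hpf, 1.30% and 1.38% at 66 hpf, 0.974% in ACME and 0.928% in methanol, so that its share of cells was itself larger at 52 hpf. Of 137 fitted members 9 were called there (6.57%, against 5.03% of all genes).

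XLOC_001932, an aborally enriched gene with EF-hand and related calcium-binding domains and no signal peptide listed, was highest in cluster 20. That cluster carried 26 of 26 QYFamide neuron genes and was called QYFamide neuron-like. Over all cells XLOC_001932 had 278 and 176 CPM at 52 hpf, 157 and 116 CPM at 66 hpf, 125 CPM in ACME and 73.2 CPM in methanol. Inside cluster 20 it had 22106 CPM at 52 hpf, 12891 CPM at 66 hpf, 6669 CPM in ACME and 5173 CPM in methanol, against at most 60.8 CPM outside (log2 fold change 7.50, edgeR adjusted p = 2.05e-33). Of 135 fitted members 10 were called there (7.41%, against 11.7% of all genes). XLOC_035579, highest in cluster 15, split the earlier matrices, at 89.9 and 120 CPM at 52 hpf, 39.6 and 34.4 CPM at 66 hpf, 148 CPM in ACME and 17.7 CPM in methanol. The first of the earlier matrices was above 52 hpf and the second below 66 hpf. The cluster examples drew their UMIs from few cells. Without the 10 highest cells of each matrix the lower log2 ratio went from 0.59 to -0.11 for XLOC_001932 and from 1.09 to -0.15 for XLOC_035579. It went from 1.14 to 0.21 for XLOC_016334 and from 1.33 to 0.32 for MSTRG.16639.

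Members called higher were scarce in clusters 5 and 8, and few were called in clusters 16, 17 and 21. The shares were 2.13% in cluster 16 (against 9.57% of all genes), 1.49% in cluster 17 (against 8.93%) and 1.46% in cluster 21 (against 4.82%). Lower calls were not particular to clusters 5 and 8: in every cluster the share of members called lower was above that of genes with at least 100 UMIs. The gap was smallest in clusters 2 and 7. After clusters 5 and 8 the largest shares were 69.9% in cluster 22 (against 20.4%) and 69.1% in cluster 23 (against 19.2%). In cluster 5, led by MSTRG.5921, 1 of 137 fitted members (0.73%) was called higher. The share was 22.2% over all genes and 17.2% over genes with at least 100 UMIs. In the same cluster 127 members (92.7%) were called lower, against 36.7% of genes with at least 100 UMIs. In cluster 8, led by XLOC_015247, 0 of 139 were called higher by edgeR and 0 by DESeq2 (1 at an unadjusted p under 0.05) and 106 (76.3%) lower, against 14.3% of all genes called higher and 22.3% of genes with at least 100 UMIs called lower. In cluster 18 edgeR, DESeq2 and the unadjusted p called 0 of 133 higher, against 1.31% of all genes. Among other clusters, 19 of 143 members were called in cluster 9 (13.3%, against 11.8% of all genes), 9 of 132 in cluster 25 (6.82%, against 4.47%), 11 of 138 in cluster 15 (7.97%, against 13.4%) and 3 of 139 in cluster 11 (2.16%, against 11.6%). Clusters 5 and 8 held more of the cells at 66 hpf. Cluster 5 had 1.06% and 1.15% of cells at 52 hpf and 9.0% and 8.85% at 66 hpf. Cluster 8 had 4.33% and 3.23%, then 10.1% and 9.42%. Clusters 2 and 7 together had 18.2% and 20.1% of cells at 52 hpf and 14.6% and 14.4% at 66 hpf. With a single dissociation per age, these shares have no biological replicate. Because the rule ranked sums over whole matrices, a gene held mainly by cluster 5 or 8 was less likely to rank among the members. The low counts there are thus not independent of the choice.

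The same ratios were computed again with every cluster at the same share of UMIs at both ages, as a description of the values that chose the members. The median log2 ratio of 52 to 66 hpf over the members was 0.56 as measured and 0.44 with equal shares, which is 78.4% of it, and over all genes it was -0.082 and -0.12. With equal shares 136 members had a lower ratio than as measured. Members that were highest in cluster 2 went from a median of 0.52 to 0.33, those of cluster 7 from 0.55 to 0.41, those of cluster 14 from 0.58 to 0.44 and those of cluster 19 from 0.85 to 0.74. The members' share of UMIs inside cluster 2 was 4.40% and 4.21% at 52 hpf, 3.42% and 3.28% at 66 hpf, 4.16% in ACME and 3.97% in methanol. Inside cluster 7 it was 5.76% and 5.32%, 4.52% and 4.32%, 5.80% and 5.12% in the same order. In both clusters the 52 hpf, ACME and methanol values all lay above the 66 hpf values. Of 25 clusters, 19 had a higher share in both 52 hpf matrices than in both 66 hpf matrices, 16 had a higher share in ACME and 9 in methanol.

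**Figure D4:**
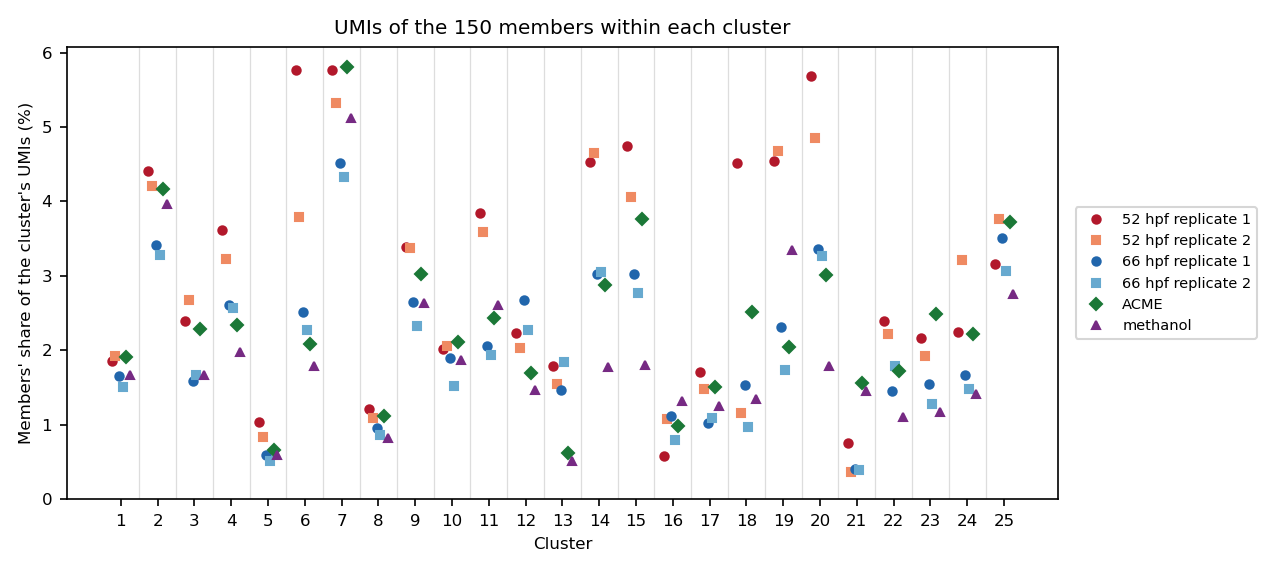
Share of each cluster's UMIs that came from the 150 members (%), 1 point per matrix, for the 25 clusters. In clusters 2 and 7 the 52 hpf, ACME and methanol points all lie above the 66 hpf points, while cluster 5 stays at or under 1.04%.

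The earlier matrices were compared over all members with both 66 hpf matrices as the base. Members were chosen with these 66 hpf values, so the ratios are not independent of the choice. In the ACME matrix 99 of 150 members (66%) were above both 66 hpf matrices, 33 below and 18 between, but 75.2% of all genes were above too. The median log2 ratio was 0.32 over members and 0.35 over all genes. In the methanol matrix 67 members (44.7%) were above both, 77 below and 6 between, against 77.7% of all genes, and the medians were -0.13 and 0.82. Above both 66 hpf matrices in ACME and in methanol were 63 members, against 67.9% of all genes, and 31 were below in both, against 11.3%. At or above the lower of the 52 hpf matrices were 56 members in ACME and 38 in methanol. The median of the members thus lay 0.032 below that of all genes in ACME and 0.95 below it in methanol, on the log2 scale.

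CPM of all genes are shifted between these matrices, and TMM scaling brings the median of all genes to -0.0027 in ACME and -0.052 in methanol. With TMM factors 58 members (38.7%) were above both 66 hpf matrices in ACME, against 42.5% of all genes, and 26 (17.3%) in methanol, against 43.2%. The methanol matrix also had the smallest share of UMIs from clusters 2 and 7, 21.2% against 40.6% to 52.2% in the others. With every cluster at its 66 hpf share, 105 members (70%) were above in ACME, against 75.2% of all genes, and 75 (50%) in methanol, against 78.8%, with median log2 ratios of 0.30 and 0.031 against 0.34 and 0.78. Inside cluster 2, 68 of 90 members with at least 100 UMIs there (75.6%) were above in ACME, against 74.2% of all genes, and 50 (55.6%) in methanol, against 74.8%. Inside cluster 7, 65 of 81 members (80.2%) were above in ACME, against 64.5%, and 38 (46.9%) in methanol, against 64.1%. Inside cluster 14 fewer were above: 20 of 50 members (40%) in ACME, against 41.9%, and 9 (18%) in methanol, against 31.5%, with median log2 ratios of -0.12 and -0.98.

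Single members departed widely from the set. XLOC_003660 had 7.76 and 6.40 CPM at 52 hpf, 4.34 and 2.85 CPM at 66 hpf, 71.0 CPM in ACME and 169 CPM in methanol, a log2 ratio to 66 hpf of 3.15 and 4.34. The glutathione S-transferase XLOC_038813, of a family of detoxifying enzymes, had 66.3 and 67.7 CPM, 34.8 and 43.9 CPM, 364 CPM and 498 CPM, with log2 ratios of 3.06 and 3.51. The green fluorescent protein gene XLOC_035583 was also highest in methanol, at 258 CPM, and had 118 CPM in ACME, 100 and 89.1 CPM at 52 hpf and 53.8 and 49.8 CPM at 66 hpf. None of these 3 genes was called in cluster 2 or 7. XLOC_038813 and XLOC_035583 were called in clusters 1, 3 and 10 and in others. These clusters were named aboral epidermis-like, with 8, 5 and 8 of 8 such genes called, but all 9 muscle-enriched epidermis genes were called in each as well, and 5 of 7 mucous genes in clusters 1 and 10. XLOC_003660 was called in clusters 4, 12 and 17. It had 215 CPM in cluster 4 at 52 hpf and 77.2 CPM there at 66 hpf, while in the mucous-like cluster 17 it had 0 CPM at 52 hpf (15 and 12 cells), 24.4 CPM at 66 hpf, 872 CPM in ACME and 1185 CPM in methanol.

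At the other end, XLOC_021677 had 134 and 119 CPM at 52 hpf, 89.8 and 86.0 CPM at 66 hpf, 18.6 CPM in ACME and 8.40 CPM in methanol, with log2 ratios of -1.98 and -2.79. The universal stress protein gene MSTRG.17150, of a family best known from bacteria and plants, had 150 and 172 CPM, 97.4 and 102 CPM, 42.7 CPM and 19.6 CPM, and its log2 ratio in methanol was -2.09. XLOC_019808 had the lowest log2 ratio in ACME, -2.40. For these genes the earlier matrices lay below every newer matrix.

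**Figure D5:**
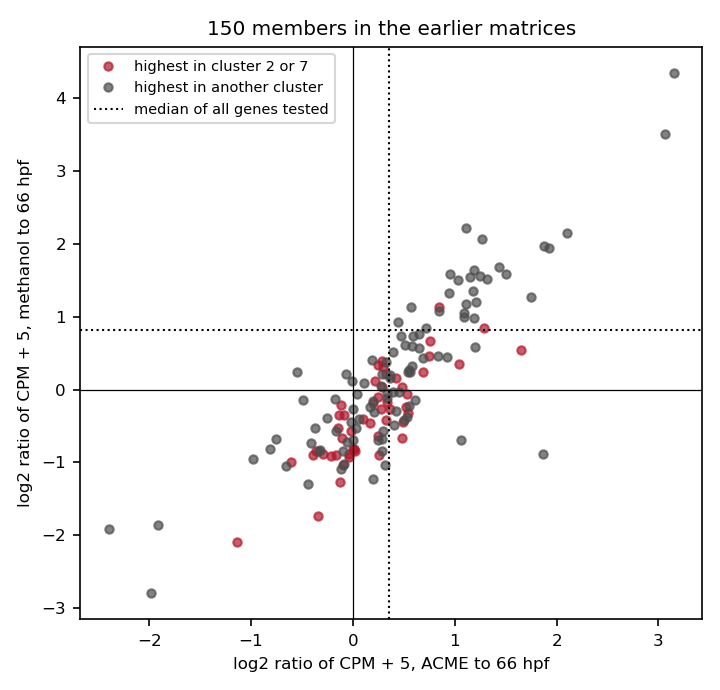
Log2 ratio of CPM + 5 to 66 hpf in the ACME matrix (x axis) and in the methanol matrix (y axis) for each of the 150 members, red where cluster 2 or 7 was the highest cluster, with dotted lines at the medians of all genes tested, 0.35 and 0.82. Most members lie below the dotted line of the methanol axis, and XLOC_003660 is at the upper right with 3.15 and 4.34.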

How the data were processed

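Cells of Clytia planulae were sequenced by droplet-based 3′ single-cell RNA sequencing. The deposited matrices hold UMI counts per gene and cell, which the authors made with STARsolo and its EmptyDrops filter with a 300 UMI cutoff, and which were used as deposited. Kept barcodes had 300 to 75000 UMIs, 200 to 5000 genes and at most 20% of UMIs from the mitochondrial feature. Counts were summed per matrix and divided into CPM. Cells were clustered on variable genes without the members (22 principal components, Harmony integration as recoded here, 50 neighbors, Leiden resolution 1). Doublets were not called, and the cluster that the study removed was not removed here.

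Clusters were compared with all other cells by edgeR 4.0.16 (R 4.3.3), with DESeq2 1.42.0 as an alternative, on counts summed over the 4 biological samples; a cluster needed 10 cells in a sample. Fits were tested on simulated data. P-values measure only the spread between these samples, which differ in age, fixation and date. A cluster was named where at least 3 and at least 50% of a list's naming genes were called and its 10 leading genes fitted the name.

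The members and the gene lists were chosen with earlier results of these data known. Genes were named by a rule: the 15 with the highest values, the 10 with the most UMIs, the 3 highest in each main cluster, the extremes in each earlier matrix, the 3 genes inside and outside the limit, and those counted by list or domain. Alternatives covered the CPM added, barcodes, UMI minimum, each replicate or sample left out, scaling, number of members, clustering and fold limit. Chosen after seeing the data were members within 0.5 log2 between technical replicates, equal cluster shares in the earlier matrices and edgeR without TMM factors.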

Additional observations from a re-analysis of the deposited data

How the results depend on the processing

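Each age is 1 biological sample, and the earlier matrices are 1 each, so no value here has a biological replicate, and depth limits rare members. No paired analysis was possible because the replicate numbers name captures of one suspension per age, which were summed for every test. Of 165 comparisons with an alternative, 125 were classed as the same, 36 as moved and 4 as reversed, and the cause was not tested. A count classed as the same need not be equal. Members above 66 hpf in methanol were 67 in the main setting and 96 without replicate 2, against 77.7% and 80.0% of all genes. In ACME they were 99 in the main setting and 119 without replicate 1, against 75.2% and 77.2%.

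The median log2 ratio with equal shares of clusters ran from 0.52 to 0.72 when 150 genes were chosen on one replicate. In ACME the median over members was 0.53 with 1 CPM added, 0.17 with 20 CPM, 0.29 with at least 200 UMIs, 0.38 and 0.42 without replicate 1 or 2, 0.28 over the 75 highest, 0.30 with 66 hpf shares, and it reversed to -0.071 with edgeR TMM scaling, where 58 members were above 66 hpf. In methanol it was -0.29 with 20 CPM, -0.19 with all deposited barcodes, -0.11 with at least 50 UMIs, -0.16 with at least 200 UMIs, -0.85 with TMM scaling, -0.31 over the 75 highest, -0.022 over the 300 highest and -0.060 over the 132 members within 0.5 between replicates, and it reversed to 0.14 with 1 CPM, 0.33 without replicate 2 (-0.13 without replicate 1) and 0.031 with 66 hpf shares. Members above 66 hpf in ACME were 46 of the 75 highest and 213 of the 300 highest, and in methanol 28 and 146, or 26 with TMM scaling.

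At a log2 fold change above 2, 19 members were called in cluster 2, 17 in cluster 7 and 9 in cluster 9. In clusters 20, 25 and 11 they were 4, 4 and 0. The share of all genes at this limit is not given here. Whether the excess in clusters 2 and 7 is kept there is therefore not read from these counts. Without TMM factors the counts were 44 in cluster 2, 10 in cluster 9, 11 in cluster 11 and 15 in cluster 25. Leaving out a sample gave 5 in cluster 25 (without 66 hpf, ACME or methanol), with no share of all genes given.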
